A study of Mus musculus with 12 samples.

Results

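The 10 genes described here are parts of the Notch pathway, and they were looked up by name in all 10 RNA-seq files, which share 24189 genes. They are the ligand genes Dll3, Dll1, Jag1 and Jag2, the receptor genes Notch1 and Notch2, the ubiquitin ligase gene Mib1, the glycosyltransferase genes Lfng and Mfng and the target gene Hes1. The set was put together around Dll3, which is low in Mist1-deficient plasma cells (PCs), and Mib1, which is low in each mutant group, so that Dll3 and Mib1 are given as a description without a test. The data consist of 10 RNA-seq libraries of mouse PCs and plasmablasts (PBs) and 2 lists of Mist1 peaks. All mice were on the C57BL/6 background and all B cells came from the spleen. The control PCs are labelled as wild type, while the sample sheet of the study gives their genotype as Bhlha15 fl/fl, and the Mist1-deficient PCs came from Cd23-Cre Bhlha15 fl/fl mice. Both were sorted as TACI+CD138+ cells on day 7 after immunization with NP-KLH in alum. The control PBs came from Xbp1 fl/fl mice, the Xbp1-deficient PBs from Cd23-Cre Xbp1 fl/fl mice and a further mutant group from Bhlha15 CreER/CreER mice. These PBs were sorted as CD138+CD23- cells on day 8 of culture on 40LB feeder cells. Each group has 2 libraries. Mist1, encoded by Bhlha15, is a basic helix-loop-helix transcription factor of secretory cells, and Xbp1 is the transcription factor of the unfolded protein response. Cd23-Cre deletes from the immature B cell stage onwards, the floxed Bhlha15 allele carries a biotin acceptor sequence, and the CreER allele affects Bhlha15 in all cells of the mouse. Mist1 binding was measured in PBs of Bhlha15 fl/fl R26 BirA/BirA mice after 4 days of LPS stimulation.

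Notch receptors are activated by membrane-bound ligands on a neighbouring cell. Mib1 attaches ubiquitin to these ligands, and their endocytosis then pulls on the receptor, which is cut by ADAM proteases and gamma-secretase. The released intracellular domain joins Rbpj and the Mastermind-like coactivators and turns on target genes such as Hes1. Fringe enzymes, among them Lfng and Mfng, add sugars to the receptors and tune their response to Delta-like and Jagged ligands. Dll3 is a divergent Delta-like protein that stays largely inside the cell and does not activate Notch on neighbouring cells. In the B cell lineage the pathway is best known for Notch2, which is required for marginal zone B cells.

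Mist1 belongs to the factors that bind E-boxes, the hexamer CANNTG, and the start of Dll3 lies in a Mist1 region. Dll3 is located at chr7:29076673-29087257 on the minus strand of mm9, and its annotated transcripts begin at 29087257 or, as in RefSeq, 453 bp further downstream at 29086804. Both belong to protein-coding transcripts and are inside the region chr7:29086264-29087800, which is 1537 bp wide and was found in both peak lists. The 300 bases around the outer start site, chr7:29087238-29087537, are shown because they hold 5 E-boxes, which are written in capitals and read along the gene.
Dll3 start: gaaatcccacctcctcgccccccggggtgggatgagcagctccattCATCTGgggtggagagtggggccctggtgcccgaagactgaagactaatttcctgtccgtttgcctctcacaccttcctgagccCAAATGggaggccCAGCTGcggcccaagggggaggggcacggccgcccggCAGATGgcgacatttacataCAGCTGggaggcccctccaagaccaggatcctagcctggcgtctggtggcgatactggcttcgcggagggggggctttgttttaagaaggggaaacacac
The letters CANNTG were searched in this window, on both strands at once since the motif is its own reverse complement, and 2 of the 5 matches are CAGCTG. Of 22359 protein-coding gene starts, 70.2% had at least 1 CANNTG in the same window and 1.58% had 5 or more. A CAGCTG was found in 14.1% of these windows, and 2 or more were found in 1.41%. Dll3 was not alone in this among the 10 genes. Lfng and Mfng also had 2 CAGCTG each in this window, with 4 and 3 CANNTG, while the remaining genes had no CAGCTG there. The log2 fold changes in Mist1-deficient PCs were 0.13 for Lfng and -0.04 for Mfng. Whether the number of E-boxes goes with a change in RNA was not tested. A match of letters is a description of the sequence and was not tested for binding.

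Of the 10 genes, 8 (80.0%) had a Mist1 region common to both lists within 10 kb. The same was true of 54.1% of all 22367 protein-coding genes and of 79.6% of the 11721 among them that reached 1 TPM in 2 or more RNA libraries, so that the share of the 10 genes was close to that of expressed genes. In the whole list of Notch pathway genes, which includes the 10, 74 of 81 genes with a gene model had such a region (91.4%). Dll1, which encodes an activating ligand, had its only region upstream of the gene, at chr17:15517321-15518478. Notch1 and Mib1 had 7 regions each, Notch2 and Hes1 5 each, and Lfng and Mfng 1 each. Jag1 and Jag2, which encode the Jagged ligands, had none at this distance. Within 1 kb, 7 of the 10 genes had a region (70.0%), as had 44.6% of all and 70.5% of the expressed protein-coding genes and 81.5% of the list. Within 50 kb, 9 of the 10 genes had one (90.0%), as had 70.6%, 91.6% and 97.5%. With peaks that overlap by at least 50% of each, 8 of the 10 genes had one within 10 kb, as had 52.5%, 77.4% and 88.9%. A start site of a protein-coding transcript lay inside a region at 6 genes (60.0%), namely Dll3, Notch1, Notch2, Mib1, Lfng and Mfng. The same was true of 32.2% of all protein-coding genes. The share of expressed genes was not determined for start sites, so that no excess is read from these values. The region at Notch1 covered an internal start site, chr2:26357609-26360731, and the region closest to the outer start was intronic. At Mib1 the regions lay over the start site, inside the gene and behind its end. At Hes1 the region before the protein-coding start covered the start of a noncoding transcript. Short sites are shown for the 7 genes with a region outside Mib1, as examples of E-boxes inside these regions. For each gene the region with its centre nearest to the first protein-coding start was taken, and the capitals mark the CAGCTG nearest to the centre of that region or, at Notch2, which has no CAGCTG there, the nearest CANNTG. All are read along the gene.
Dll3, chr7:29086797-29086820, minus strand: ggcatccagCAGCTGcgactcctg
Dll1, chr17:15517863-15517886, minus strand: ggccacgagCAGCTGctaggataa
Notch1, chr2:26368984-26369007, minus strand: ccacaactaCAGCTGgttggattg
Notch2, chr3:97817999-97818022, plus strand: gtgctgagcCACATGattgaaaat
Hes1, chr16:30064234-30064257, plus strand: cgagcacagCAGCTGctatttacc
Lfng, chr5:141082568-141082591, plus strand: gatggcgcaCAGCTGggtcacatc
Mfng, chr15:78603991-78604014, minus strand: ggctcccagCAGCTGcctctgggg
The Dll3 site covers the inner start site. CAGCTG occurred in 67.0% of the 23806 common regions, which had a median width of 1038 bp. The peak lists give positions alone, so that the strength of binding could not be compared.

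**Figure D1:**
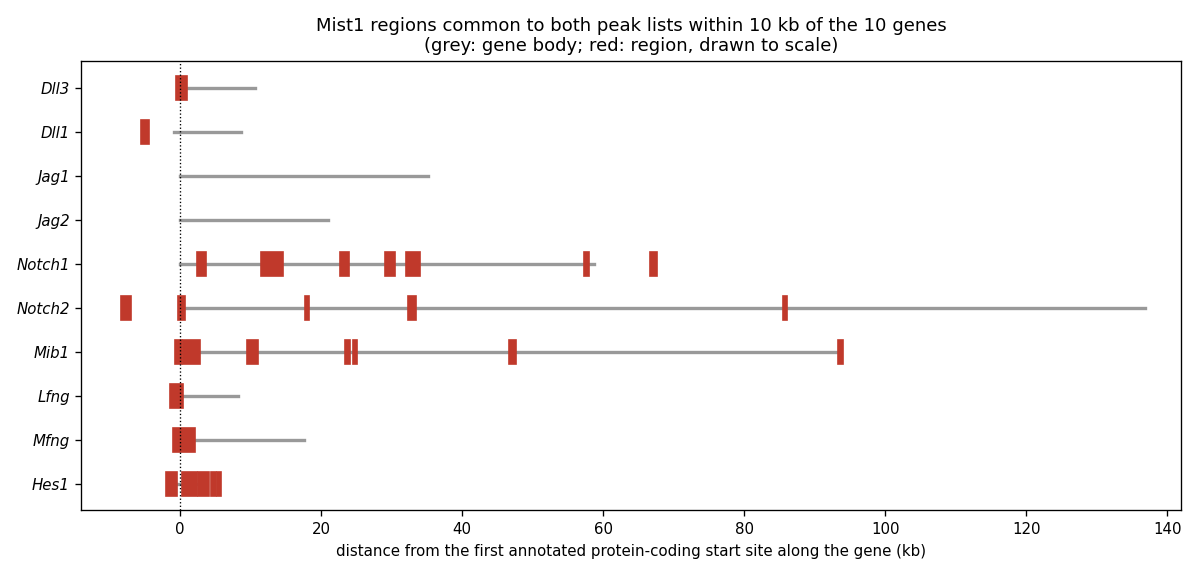
Mist1 regions at the 10 genes, plotted as distance in kb from the first annotated start site along each gene, with the gene body in grey and the regions common to both peak lists in red. Dll3, Lfng and Mfng have a region across the start site, Notch1 and Mib1 have 7 regions each, and Jag1 and Jag2 have none within 10 kb.

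RNA levels are given as TPM, the share of transcripts after correction for gene length, which sums to the same total in each library, so that the depth behind them is unknown. Between 11514 and 12024 genes reached at least 1 TPM in a library. Bhlha15 had 258 and 242 TPM in control PCs and 14.4 and 16.6 TPM in Mist1-deficient PCs. It had 176 and 159 TPM in control PBs, 3.57 and 2.60 TPM in Xbp1-deficient PBs and 0.210 and 0.551 TPM in Bhlha15 CreER/CreER PBs, so that Bhlha15 was low in all 3 mutant groups. Xbp1 had 3168 and 3043 TPM in control PBs and 1981 and 2024 TPM in Xbp1-deficient PBs. These are values of the whole gene, and the deleted part was not looked at on its own. All 8 plasma cell markers found in the files were expressed in each group. Transcripts of other cells were present as well. The summed level of 9 fibroblast or feeder cell markers was 919 to 1783 TPM in PBs and 9.39 to 12.4 TPM in PCs, and the lowest value among PBs came from Bhlha15 CreER/CreER library 2. The 8 neutrophil markers summed to 123 to 125 TPM in Xbp1-deficient PBs, to 7.92 to 8.41 TPM in control PBs and to 448 to 951 TPM in PCs. The 8 T cell markers summed to 92.4 to 143 TPM in PCs and to at most 19.6 TPM in PBs. The 9 macrophage or dendritic cell markers summed to 32.7 to 35.1 TPM in Xbp1-deficient PBs and to 135 to 137 TPM in control PBs. Most of this was Cd68, with 16.9 and 18.7 TPM against 128 and 131 TPM, while Lyz2 had the opposite order, with 15.1 and 15.8 TPM against 5.86 and 5.22 TPM, and the other 7 markers were below 1 TPM in these libraries. The part of these cells in the values below was not tested. In these bulk samples, fewer cells of a type and less RNA per cell cannot be told apart.

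Dll3 was the ligand gene with the highest level in control PCs and was nearly absent from Mist1-deficient PCs. It had 13.4 and 8.15 TPM in control PCs and 0.383 and 0.361 TPM in Mist1-deficient PCs, which did not overlap. The log2 fold change of scaled TPM plus 0.1 was -4.47 (SE 0.32), and Dll3 passed the filter on low values through the control libraries alone. This contrast chose the gene and was not tested. The study called genes regulated at a change over 3-fold, an adjusted p under 0.05 and over 5 TPM, and 0.723% of all 12028 genes fitted were lower by this rule, while 0.125% were higher. Dll3 belongs to them by the way it was chosen.

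Control PBs expressed less Dll3 than control PCs, with 2.06 and 2.16 TPM. Xbp1-deficient PBs had 0.452 and 0.568 TPM and Bhlha15 CreER/CreER PBs 0.791 and 0.667 TPM. Both mutant groups were below both control libraries, which they share. The log2 fold changes were -2.04 (SE 0.39) in Xbp1-deficient PBs and -1.38 (SE 0.39) in Bhlha15 CreER/CreER PBs. They are given without a test, since Dll3 passed the filter in PBs only through the control libraries, where it was high. Ordered by mean level, control PCs were followed by control PBs, Bhlha15 CreER/CreER PBs, Xbp1-deficient PBs and Mist1-deficient PCs, and the last 3 groups all lay below 1 TPM.

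The other ligand genes were weakly expressed. Dll1 had 1.37 and 1.44 TPM in control PCs, 0.913 and 1.11 TPM in Mist1-deficient PCs and at most 0.175 TPM in PBs. Its log2 fold change in Mist1-deficient PCs was -0.42 (SE 0.32, adjusted p = 0.358). An antisense gene overlaps its exons, and the strand setting of the read counting is not given in the sources used here. Jag1 did not exceed 0.343 TPM in any library and was not fitted.

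Jag2 had 0.721 to 1.35 TPM in PCs and higher levels in PBs. Control PBs had 3.69 and 5.39 TPM, Xbp1-deficient PBs 2.94 and 2.27 TPM and Bhlha15 CreER/CreER PBs 4.98 and 4.72 TPM. Xbp1-deficient PBs lay below all other PB libraries. Jag2 fell in these cells by 0.96 on the log2 scale against control PBs (limma, SE 0.22, 1.95-fold, adjusted p = 0.0126), and it was lower than in Bhlha15 CreER/CreER PBs as well (log2 difference -1.12, SE 0.22, adjusted p = 0.00646). Without control PB library 2 or Xbp1-deficient PB library 2 the former difference no longer passed (adjusted p = 0.104 and 0.0729). The feeder cell markers summed to 1639 to 1783 TPM in Xbp1-deficient PBs and to 1165 to 1392 TPM in control PBs. Of these markers, Lum was lower in Xbp1-deficient PBs, with 0.628 and 0.533 TPM against 2.402 and 2.197 TPM. The part of feeder cells in the level of Jag2 was not tested.

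Among the receptors, Notch1 and Notch2 were expressed at similar levels in PCs and neither differed between mutant and control PBs beyond the test. Notch1, a receptor best known from T cell development, had 27.3 and 25.96 TPM in control PCs and 21.9 and 20.1 TPM in Mist1-deficient PCs. It ranged from 17.9 to 24.3 TPM in PBs. Notch1 fell in Mist1-deficient PCs by 0.32 on the log2 scale (SE 0.09, 1.25-fold, adjusted p = 0.0409). This call was lost with quantile normalization (adjusted p = 0.0559), without a filter on low values (0.0649), without the variance trend (0.0827) and without control PC library 1, Mist1-deficient PC library 1 or 2 (0.0952, 0.113 and 0.236). Exons of Notch1 overlap antisense genes.

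Notch2 had 20.4 and 25.9 TPM in control PCs and 18.6 and 17.4 TPM in Mist1-deficient PCs. The difference of -0.33 on the log2 scale (SE 0.11) did not pass the test (adjusted p = 0.0768). It was -0.47 without control PC library 1 and -0.19 without control PC library 2, with 1 control library left in each case. Control PC library 2, which had the higher level of Notch2, also had 89.7 TPM of the complement receptor gene Cr2, which is highest in marginal zone B cells among B cells, against 49.0 to 56.6 TPM in the other PC libraries. The summed level of 7 B cell markers was 3233 to 3564 TPM in control PCs and 2836 to 2998 TPM in Mist1-deficient PCs, and all 7 were expressed in each group. Their part in the receptor values was not tested. In PBs, Notch2 had 9.24 to 11.3 TPM except for Bhlha15 CreER/CreER library 2, which had 6.11 TPM. The log2 difference of Notch2 between Xbp1-deficient and Bhlha15 CreER/CreER PBs did not pass the test (limma, 0.23, SE 0.18, adjusted p = 0.367). It was 0.51 with library 2 as the only Bhlha15 CreER/CreER library. In Xbp1-deficient PBs the log2 fold changes of Notch1 and Notch2 were 0.06 (95% interval -0.17 to 0.28) and 0.02 (-0.39 to 0.43).

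Mib1, located at chr18:10725546-10818702 in mm9, had the highest mean level of the 10 genes in control PCs and control PBs, while Mfng had the highest in the 3 mutant groups. In Mist1-deficient PCs both means were close, at 48.1 TPM for Mfng and 47.3 TPM for Mib1, and Mib1 was the higher one in library 1. Mib1 had 99.2 and 99.8 TPM in control PCs and 50.3 and 44.2 TPM in Mist1-deficient PCs. Control PBs had 41.0 and 40.7 TPM, Xbp1-deficient PBs 20.9 and 20.3 TPM and Bhlha15 CreER/CreER PBs 20.1 and 15.7 TPM. In each comparison the mutant libraries lay below the control libraries without overlap. The log2 fold changes were -1.06 (SE 0.08, 2.08-fold) in Mist1-deficient PCs, -1.19 (SE 0.10, 2.28-fold) in Xbp1-deficient PBs and -1.16 (SE 0.10, 2.23-fold) in Bhlha15 CreER/CreER PBs. These comparisons chose the gene and were not tested, and the mutant PBs share their control libraries. The mutant PBs differed from each other by -0.03 on the log2 scale, with an interval from -0.26 to 0.19. Mist1-deficient PCs had levels just above those of control PBs, and control PCs had the highest values.

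**Figure D2:**
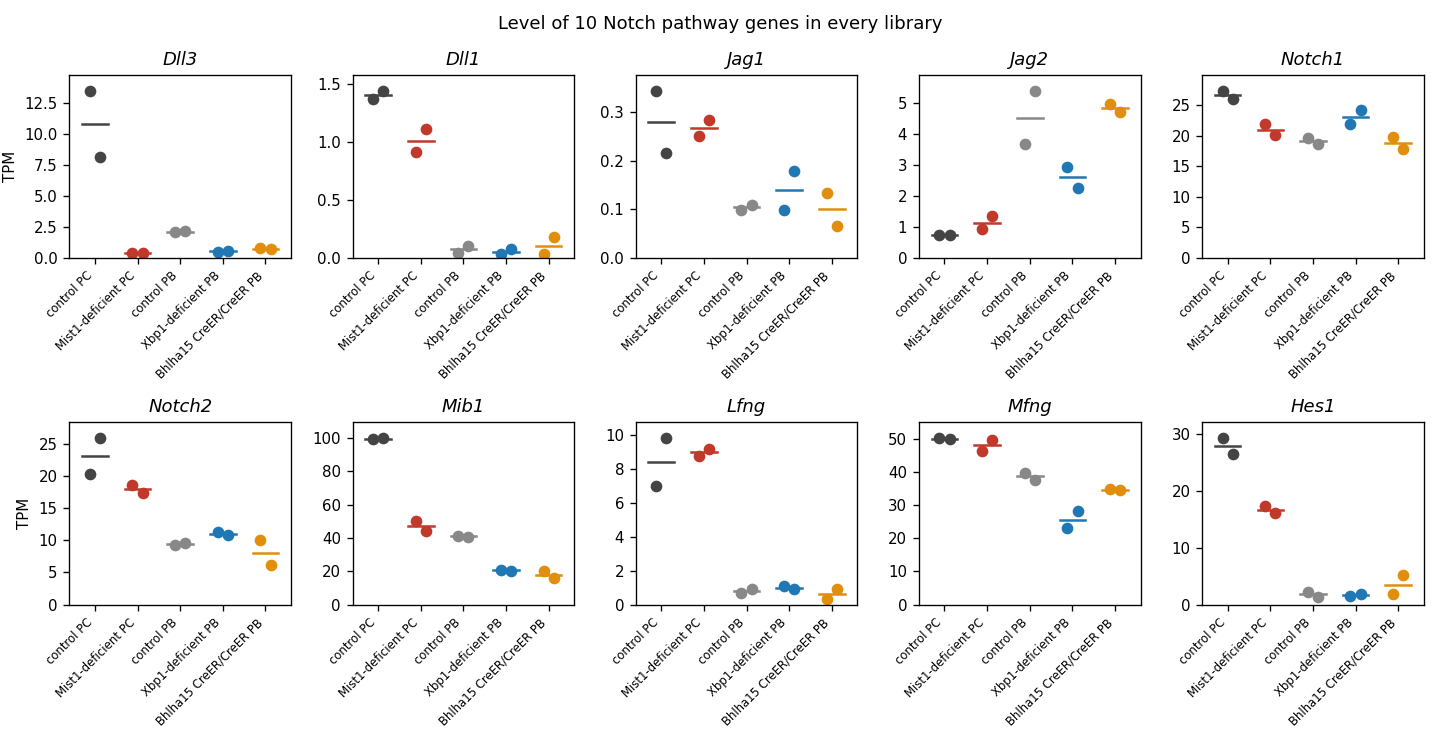
TPM of the 10 genes in every library, with a panel for each gene and its own axis from 0, a point for each library and a line at the mean of the 2 libraries of a group. Dll3 is highest in control PCs, Mib1 is lower in each mutant group than in its control, and Jag2 is higher in PBs than in PCs.

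Of the fringe genes, Mfng was expressed in PCs and PBs and Lfng mainly in PCs. Mfng had 50.2 and 49.8 TPM in control PCs and 46.5 and 49.7 TPM in Mist1-deficient PCs, with a log2 fold change of -0.04 (95% interval -0.21 to 0.13). In PBs it had 39.7 and 37.7 TPM in the controls, 23.2 and 28.1 TPM in Xbp1-deficient cells and 34.9 and 34.4 TPM in Bhlha15 CreER/CreER cells. Mfng fell in Xbp1-deficient PBs by 0.81 on the log2 scale (SE 0.11, 1.75-fold, adjusted p = 0.000987), and it was lower there than in Bhlha15 CreER/CreER PBs (log2 difference -0.69, SE 0.11, adjusted p = 0.0023). In the latter cells its log2 fold change against control PBs was -0.12 (SE 0.11, adjusted p = 0.759). Lfng had 7.01 to 9.80 TPM in PCs, without a difference between both groups beyond their spread (log2 fold change 0.13, SE 0.16, adjusted p = 0.579), and at most 1.09 TPM in PBs, where it was not fitted.

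Hes1, which encodes a transcriptional repressor and is a classical target of Notch, was expressed in PCs and at a low level in PBs. It had 29.3 and 26.4 TPM in control PCs and 17.3 and 16.1 TPM in Mist1-deficient PCs. Hes1 fell in Mist1-deficient PCs by 0.71 on the log2 scale (SE 0.10, 1.64-fold, adjusted p = 0.00581), and the libraries did not overlap. In PBs it had 1.41 to 2.23 TPM, with the exception of Bhlha15 CreER/CreER library 2 at 5.22 TPM, which was also the PB library with the lowest summed level of feeder cell markers, and no comparison of PBs passed the test. Between Xbp1-deficient and Bhlha15 CreER/CreER PBs the log2 difference of Hes1 was -1.07 (SE 0.51). It ranged from -1.90 to -0.24 with 1 library left out. The value of -1.90 was that with library 2 as the only Bhlha15 CreER/CreER library. Of 6 endothelial cell markers, the summed level was 72.4 to 72.9 TPM in control PCs and 46.8 to 51.5 TPM in Mist1-deficient PCs. Pecam1 provided most of it with 66.9 and 67.2 TPM in control PCs and 40.9 and 44.5 TPM in Mist1-deficient PCs. Cdh5 had 4.61 and 4.40 TPM in control PCs and 4.29 and 5.15 TPM in Mist1-deficient PCs, and Egfl7 had 0.796 and 1.35 TPM and 1.42 and 1.76 TPM. Kdr, Tek and Emcn did not exceed 0.126 TPM in PCs. The part of such cells in the level of Hes1 was not tested.

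**Figure D3:**
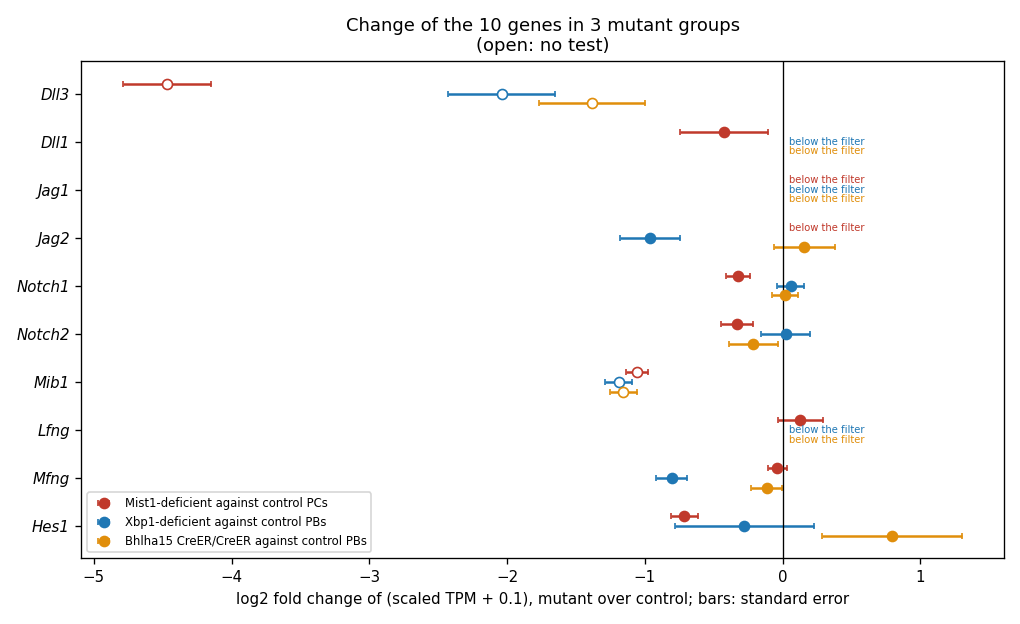
Log2 fold change of scaled TPM plus 0.1 with its standard error for each of the 10 genes in the 3 mutant groups. Open points, those of Dll3 and Mib1, have no test. The changes of Dll3 range from -1.38 to -4.47, those of Mib1 from -1.06 to -1.19, and Mfng and Jag2 are lower in Xbp1-deficient PBs.

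The rest of the pathway was examined with a list of 81 genes that leaves out Dll3 and Mib1 and contains the other 8 genes. In Mist1-deficient PCs, 63 of them could be fitted and the other 18 were below the filter. Of these, 14 were lower and 7 were higher with an adjusted p under 0.05. Over all genes, 16.2% were lower and 13.3% were higher, compared with 22.2% and 11.1% of the list. The median log2 fold change was -0.04 over the list and 0.01 over all genes. None of the list genes met the 3-fold rule. Quantile normalization gave 11 lower and 11 higher genes.

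The genes that fell in Mist1-deficient PCs were spread over the pathway. The nuclear complex had 3 of 9 genes lower (33.3%) and none higher, against 16.2% and 13.3% of all genes. Parts of the pathway this small were not tested as groups. Maml3, a Mastermind-like coactivator, had 3.22 and 2.61 TPM in control PCs and 0.975 and 1.24 TPM in Mist1-deficient PCs (log2 fold change -1.30, SE 0.28, adjusted p = 0.0211). Kat2a, a histone acetyltransferase, had 77.9 and 70.9 TPM in control PCs and 40.9 and 43.2 TPM in Mist1-deficient PCs (-0.80, SE 0.09, adjusted p = 0.00291). Of 9 fitted genes that the list counts as Notch targets, 3 fell (33.3%, against 16.2% of all genes), and these were Hes1, Myc and Gpr183. Whether Notch acts on these genes in PCs was not tested. Myc, which has many regulators besides Notch, had 64.5 and 65.4 TPM in control PCs and 36.6 and 38.9 TPM in Mist1-deficient PCs (-0.76, SE 0.07, adjusted p = 0.00195). Gpr183 encodes a chemotactic receptor of B cells. Eogt, a glycosyltransferase of the endoplasmic reticulum that modifies Notch, fell by 0.70 (SE 0.07, adjusted p = 0.0027), and the ubiquitin ligase gene Nedd4 fell by 0.63 (SE 0.06, adjusted p = 0.00236). The other genes that fell included Psen2, Rfng, Notch1, Tle3, Maml2 and Cdk8.

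Mib2, the paralog of Mib1, rose while Mib1 was lower. Mib2 had 26.5 and 28.8 TPM in control PCs and 40.1 and 39.0 TPM in Mist1-deficient PCs, which is an increase of 0.54 on the log2 scale (SE 0.07, 1.45-fold, adjusted p = 0.00425). It was the only one of the 6 fitted genes for ligand ubiquitination and endocytosis that passed the test, Mib1 being left out. The 6 other genes that rose were Dtx3, Gxylt1, Furin, Adam10, Itch and Ncstn, with log2 fold changes from 0.23 to 0.32. In PBs, Mib2 had 21.8 to 25.1 TPM in all libraries.

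In Xbp1-deficient PBs, 64 of the 81 genes were fitted, of which 10 were lower and 5 were higher. These are 15.6% and 7.81% of the list, and 18.0% and 10.3% of all genes were lower and higher. The medians were -0.03 over the list and 0.00 over all genes. By the 3-fold rule 1.63% of all genes were lower and 0.239% higher, and none of the list genes was. The numbers depend on the scaling of the libraries, since the deposited TPM without scaling shift the median of all genes by 0.21 in this comparison and by 0.26 between both mutants, and they gave 7 lower and 19 higher genes. Quantile normalization gave 7 lower and 13 higher genes.

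The enzymes for sugars on Notch included 3 of 8 fitted genes that fell (37.5%, against 18.0% of all genes). These were Eogt, Mfng and Rfng, and the enzymes were not tested as a group. Eogt had 27.4 and 26.02 TPM in control PBs and 14.6 and 15.3 TPM in Xbp1-deficient PBs (log2 fold change -1.04, SE 0.11, adjusted p = 0.000169). Myc had 126 and 123 TPM in control PBs and 69.3 and 69.4 TPM in Xbp1-deficient PBs (-1.05, SE 0.09, adjusted p = 7.93e-05). The corepressor genes moved in both directions. Tle1 fell by 0.90 (SE 0.13, adjusted p = 0.00152). Tle3 had 5.80 and 7.43 TPM in control PBs and 18.5 and 19.9 TPM in Xbp1-deficient PBs and rose by 1.33 (SE 0.15, adjusted p = 0.000309). Dtx1, a Deltex gene that is itself a known Notch target, had 1.12 and 1.39 TPM in control PBs and 3.51 and 2.65 TPM in Xbp1-deficient PBs (1.02, SE 0.32, adjusted p = 0.0461). The remaining genes that fell were Jag2, Furin, Cdk8, Ccnc and Itch, and Ncstn, Dtx3l and Dtx3 rose.

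In Bhlha15 CreER/CreER PBs, limma found none of the 64 fitted list genes lower or higher, and 5 had an unadjusted p under 0.05. Few genes were called in this comparison at all, with 0.272% of all genes lower and 0.0495% higher, or 0.0330% and 0.0165% by the 3-fold rule. Compared with these PBs, Xbp1-deficient PBs had 12 list genes lower and 9 higher, at 17.8% and 9.34% of all genes. Deposited TPM gave 6 lower and 21 higher genes here. The 3-fold rule called 1.66% of all genes lower and 0.239% higher. Tle3 was the only list gene to meet it, with 5.03 and 3.79 TPM in Bhlha15 CreER/CreER PBs, and it was higher in Xbp1-deficient PBs by 1.86 (SE 0.15, adjusted p = 4.66e-05). Dtx1 was higher by 1.38 (SE 0.32, adjusted p = 0.0142). Jag2, Eogt, Tle1 and Myc were lower by more than 0.90 on the log2 scale.

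**Figure D4:**
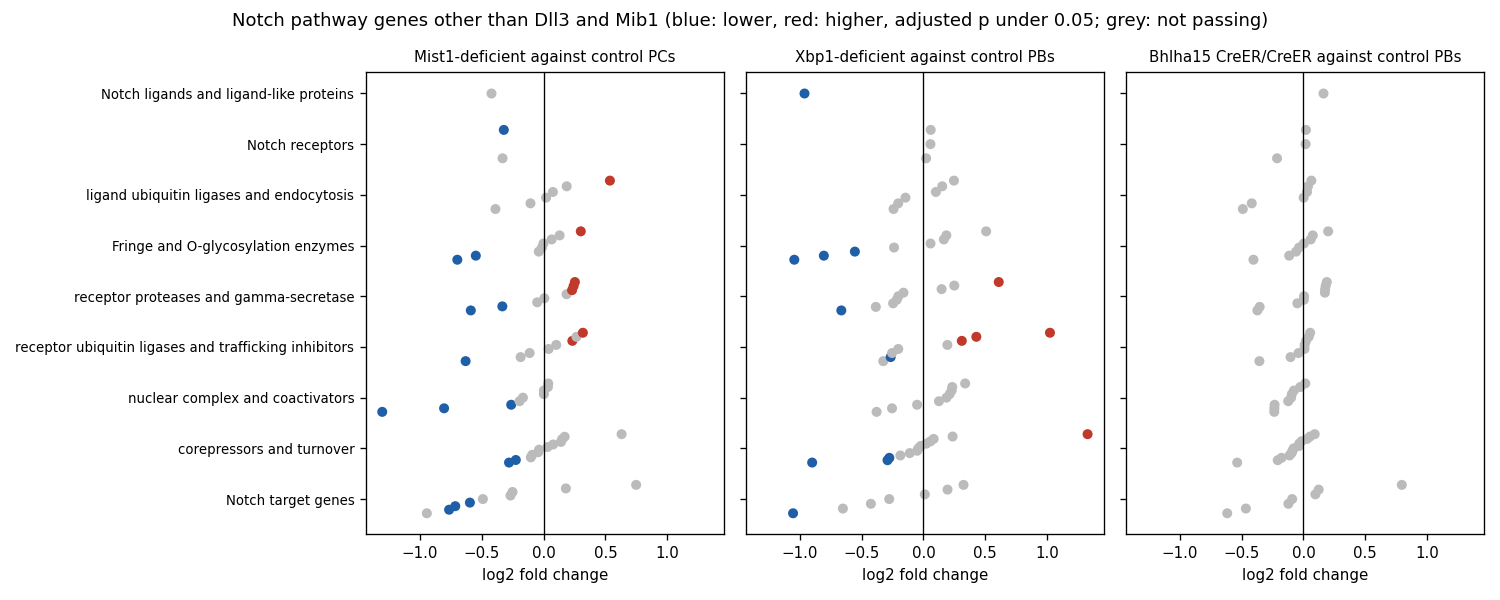
Log2 fold change of the fitted Notch pathway genes other than Dll3 and Mib1, grouped by role, in the 3 mutant groups, with a point for each gene. Of the genes, 14 are lower and 7 higher in Mist1-deficient PCs, 10 lower and 5 higher in Xbp1-deficient PBs and none in Bhlha15 CreER/CreER PBs at an adjusted p under 0.05.

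The effect of losing Bhlha15 was compared between PCs and PBs in a model of all 10 libraries. In this model 4 of 70 fitted list genes had a more negative and 1 a more positive effect in PCs, at 4.17% and 1.94% of all genes. None of the other 7 genes of the initial set that were fitted here, Dll1, Jag2, Notch1, Notch2, Lfng, Mfng and Hes1, passed this test. The difference for Hes1 was -1.49 on the log2 scale (SE 0.62, adjusted p = 0.2). With 1 library left out it ranged from -2.30, without Bhlha15 CreER/CreER library 1, to -0.69. The log2 values for Dll3 and Mib1 were -3.06 (SE 0.41) and 0.11 (SE 0.13), without a test. PCs and PBs also differ in the Bhlha15 allele, the control genotype and the culture, which cannot be told apart from the stage.

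The genes with profiles most similar to Dll3 and Mib1 were found by the root mean square difference of centred log2 values over the 10 libraries among 13229 genes. The 5 genes closest to Dll3 were Rab3d, Serpini1, Abcb6, Arpp21 and Mrgpre, at 0.57 to 0.71. Rab3d, which encodes a GTPase of secretory vesicles, had 116 and 79.7 TPM in control PCs and 4.57 and 6.14 TPM in Mist1-deficient PCs. The 5 genes closest to Mib1 were Zfp810, Kcnk5, Ppm1k, Gramd1c and Rgs14, at 0.22 to 0.26. Rgs14, a regulator of G protein signalling, had 133 and 120 TPM in control PCs and 55.0 and 60.3 TPM in Mist1-deficient PCs. Kcnk5, a potassium channel gene, had 21.6 and 21.8 TPM in control PBs and 10.4 to 15.5 TPM in both mutant PBs. These values describe similarity over libraries that also chose Dll3 and Mib1.

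**Figure D5:**
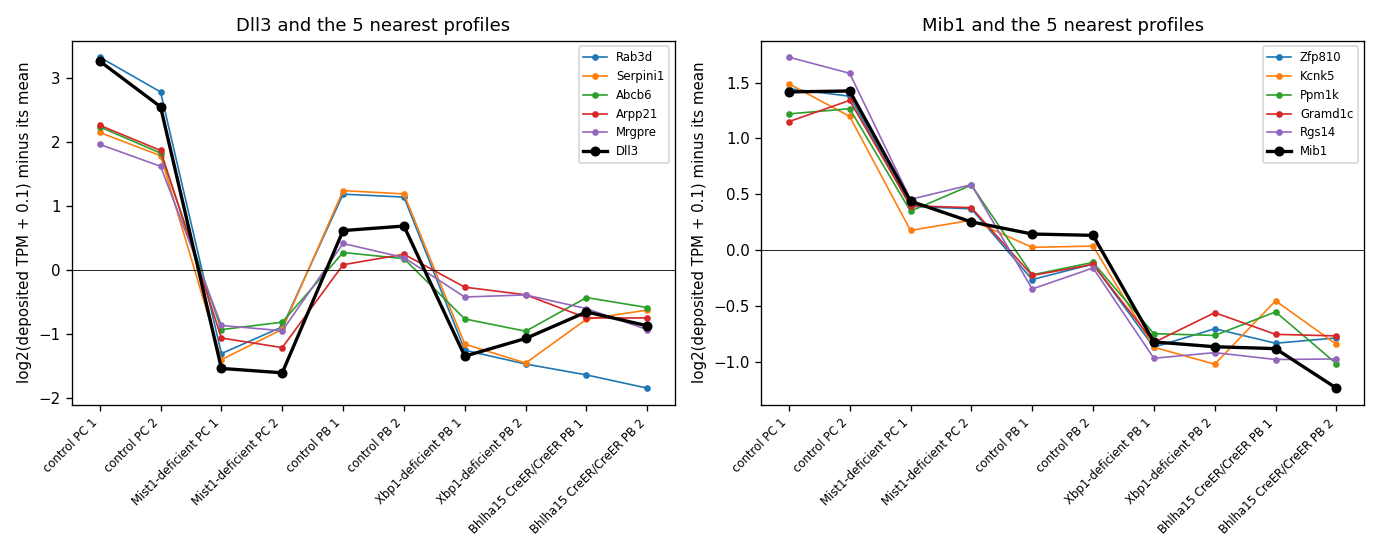
Log2 of deposited TPM plus 0.1 minus its mean over the 10 libraries, for Dll3 (left) and Mib1 (right) in black and for the 5 genes with the most similar profiles in colour. The lines only connect the libraries of a gene. The genes of both groups are lower in the mutant libraries of either stage than in the controls of that stage. The Mib1 group is also higher in all PCs than in the mutant PBs.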

How the data were processed

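RNA-seq was available for 10 libraries in 5 groups, and Mist1 Bio-ChIP-seq for 2 samples. The deposited TPM were made by the authors, who trimmed reads with cutadapt, aligned them with STAR 2.4.2 to mm9, counted them with featureCounts 1.5 and left out immunoglobulin and T cell receptor genes. The deposited peak positions, a unit of their own, were called by the authors with MACS on Bowtie 1.0.0 alignments. TPM keep no depth, so that no counting interval is given.

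Libraries were scaled by the median of ratios. All genes reaching 1 TPM in 2 or more libraries of a model were fitted on log2(scaled TPM + 0.1) with limma 3.58.1 in R 4.3.3 (eBayes with trend), using models of 4 PC, 6 PB or all 10 libraries. The two-sided p-values of a model were adjusted over all its genes by the Benjamini-Hochberg method. The script was tested on simulated data. Labels do not give separate animals, so that p-values measure only the spread between 2 libraries a group. The numbers of replicates do not pair libraries.

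Peaks sharing at least 1 bp were merged with bedtools 2.31.1 and Python 3.11.15 and placed on GENCODE M1, whose NCBIM37 genome is mm9. Of 83 list genes, 81 had a gene model of that name.

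The 10 genes, the gene lists and the tests were chosen with earlier results of these data known. Named are the 10 genes, list genes that pass the test, of which 1 is not reported here, with values for at most the 6 with the largest change in a contrast, Bhlha15, Xbp1 and the 5 nearest profiles. Mib2 in the PCs, Cr2 and the other single cell markers were named after their values were seen. Dll3 is given without a test in each comparison, because it passed the filter only through the control libraries. Alternatives were the scaling, pseudocount, filter, variance trend, libraries in the model, each library left out, and the distance and overlap of peaks. In the files, 2 of the 10 genes, Jag2 and Notch1, carry a suffix that was removed and whose meaning is not given in the sources used here.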

Additional observations from a re-analysis of the deposited data

Results flagged for a closer look

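The effect of losing Bhlha15 differed between PCs and PBs for 5 of 70 fitted Notch pathway genes in the test of the difference itself (limma, 10 libraries, 2 a group). These were 4 more negative and 1 more positive in PCs, or 5.71% and 1.43%, compared with 4.17% and 1.94% of all genes, and leaving out a library gave 0 to 6 and 0 to 1 genes. The difference of the log2 fold changes was -0.68 for Gpr183 (SE 0.11, adjusted p = 0.0125), with -0.60 in PCs and 0.10 in PBs. It was -0.65 for Eogt (SE 0.12, adjusted p = 0.0174), with -0.70 in PCs and -0.04 in PBs. Myc had a difference of -0.63 (SE 0.10, adjusted p = 0.0125), with -0.76 in PCs and -0.12 in PBs. Kat2a had a difference of -0.55 (SE 0.11, adjusted p = 0.0243), with -0.80 in PCs and -0.24 in PBs. Mib2 had a difference of 0.49 (SE 0.10, adjusted p = 0.0303), with 0.54 in PCs and 0.06 in PBs. The Bhlha15 allele, the control genotype and the culture also differ between PCs and PBs and cannot be told apart from the stage. The shares were close to those of all genes and are not read as a result about the pathway.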

How the results depend on the processing

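No paired analysis was possible because the replicate numbers were given in the order of the samples and the columns carry none. Leaving out a library leaves a group with 1 library, which is assumed to vary like the other groups, and Dll3 falls below the filter without a control library. Of the alternatives for counts, log2 fold changes and regions, the following changed a value. In Mist1-deficient PCs, 11 list genes were higher with quantile normalization and 2 without the variance trend, and leaving out a library gave 8 to 13 lower and 1 to 10 higher genes. In Xbp1-deficient PBs the number of higher genes was 19 with deposited TPM, 13 with quantile normalization and 3 with all genes above 0 TPM, and leaving out a library gave 6 to 13 lower and 3 to 7 higher genes. Between both mutants, deposited TPM gave 6 lower and 21 higher genes, quantile normalization gave 14 higher genes and leaving out a library gave 6 to 15 lower and 5 to 13 higher genes. For the difference between stages, 2 genes were lower and 0 higher without the variance trend, 0 were higher with deposited TPM, and leaving out a library gave 0 to 6 lower and 0 to 1 higher genes. The log2 fold change of Dll3 in PCs was -3.05 with a pseudocount of 1, and its difference between stages was then -2.17 (-3.44 to -2.67 without a library). In PBs the values of Dll3 also moved with the settings, libraries left out aside. They ranged from -2.41 to -1.13 in Xbp1-deficient PBs, from -1.48 to -0.84 in Bhlha15 CreER/CreER PBs and from -1.13 to -0.28 between both mutants. Without the variance trend they stayed at -1.38 in Bhlha15 CreER/CreER PBs and -0.66 between both mutants. Nothing is read from these values, since Dll3 passed the filter only through the control libraries. With deposited TPM, Mib1 was at -0.98 in Xbp1-deficient PBs and at 0.22 between both mutants, and with quantile normalization its difference between stages was 0.016. Without a library, Mib1 ranged from -1.14 to -0.97 in PCs, from -1.25 to -1.05 in Bhlha15 CreER/CreER PBs, from -0.14 to 0.065 between both mutants and from -0.0095 to 0.24 between stages. Between 7 and 9 of the 10 genes had a Mist1 region at the other distances and overlaps. The causes were not tested.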

Other observations

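Several pathway genes, chosen after their values were seen, had different levels in PC and PB libraries. Neurl3, a ubiquitin ligase gene of the Neuralized family, had 15.4 to 22.0 TPM in PCs and 0.331 to 0.756 TPM in PBs. Dtx1 had 28.5 to 40.8 TPM in PCs and 0.745 to 3.51 TPM in PBs, and Tle3 had 39.8 to 51.1 TPM in PCs and 3.79 to 19.9 TPM in PBs. These levels were not compared by a test, since stage, culture and genotype differ together.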
